A study of Rattus norvegicus with 6 samples.

Results

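The caveolae coat genes are the 8 genes that encode the caveolins (Cav1, Cav2 and Cav3), the cavins (Cavin1, Cavin2 and Cavin3) and a pair of membrane-shaping proteins, Ehd2 and Pacsin2. They were chosen by name, as the array features whose annotation gives exactly 1 of these symbols, and each gene was read from its feature with the highest mean over all arrays. All 8 were found among the 18166 genes measured, on 9 features, Cav2 having 2. The 6 arrays, one-colour Affymetrix, measured RNA of ADSCs (adipose-derived stem cells, which are stromal precursors in fat) from inguinal fat of female Wistar rats aged 2 weeks. The 3 induced arrays hold cells after 7 days of adipogenic induction in medium with 0.5 mM 3-isobutyl-1-methylxanthine (which raises cAMP), 1 µM dexamethasone (a glucocorticoid), 5 µg/ml insulin and 20% fetal bovine serum. The 3 control arrays hold ADSCs grown with 10% serum and without the inducers, so serum and inducers cannot be told apart. The labels call the arrays biological replicates without saying whether the cultures came from separate animals or whether any arrays share a culture. The p-values therefore set the difference between groups against the spread between these arrays only. The labels give no culture time for the control cells.

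Caveolae are flask-shaped pits of the plasma membrane, and adipocytes are among the cells that carry most of them. Cav1 is the caveolin that builds the pit outside muscle, Cav2 joins it in mixed oligomers and depends on it to reach the cell surface, and Cav3 takes the place of Cav1 in muscle. Cavins form a coat on the cytoplasmic side: Cavin1 is required for caveolae to form, Cavin2 binds phosphatidylserine and helps to curve the membrane, and Cavin3 is recruited through Cavin1. Ehd2, an ATPase, sits at the neck and holds caveolae at the surface, and the F-BAR protein Pacsin2 helps to bend the neck. In humans and mice, loss of Cav1 or Cavin1 causes lipodystrophy, a lack of fat tissue.

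The sequences shown are those of Cav2 and Cavin2, the genes with the largest differences between groups, and of Cav1 and Cavin1, the main structural members of their families. Each is the 250 bases before the RefSeq start of Cav2, Cav1, Cavin2 and Cavin1 in build GRCr8, 5′ to 3′ on the gene's strand. Capitals mark matches, searched on both strands, to the letters GGGCGG of the GC box, which zinc finger factors of the Sp family bind. They also mark the letters TATAAA, the core of the box that positions the polymerase in some promoters. A further motif marked is CCAAT, which the factor NF-Y binds. The sources used here do not give the build behind the array design. Cav2 lies at chr4:46582431-46582680 on the plus strand, Cav1 (the upstream of its 2 starts in the table) at chr4:46606288-46606537 on the plus strand, Cavin2 at chr9:57806025-57806274 on the minus strand and Cavin1 at chr10:86396384-86396633 on the minus strand.
Cav2: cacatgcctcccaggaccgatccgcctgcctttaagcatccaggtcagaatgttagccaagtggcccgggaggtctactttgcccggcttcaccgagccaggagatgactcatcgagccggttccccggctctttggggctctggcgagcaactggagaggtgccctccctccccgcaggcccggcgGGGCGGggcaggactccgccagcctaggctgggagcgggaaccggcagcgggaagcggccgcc
Cav1: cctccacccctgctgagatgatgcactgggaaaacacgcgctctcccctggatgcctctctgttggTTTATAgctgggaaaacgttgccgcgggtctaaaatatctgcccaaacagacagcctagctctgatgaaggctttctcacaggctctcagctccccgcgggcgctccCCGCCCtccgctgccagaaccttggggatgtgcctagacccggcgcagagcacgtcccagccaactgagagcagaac
Cavin2: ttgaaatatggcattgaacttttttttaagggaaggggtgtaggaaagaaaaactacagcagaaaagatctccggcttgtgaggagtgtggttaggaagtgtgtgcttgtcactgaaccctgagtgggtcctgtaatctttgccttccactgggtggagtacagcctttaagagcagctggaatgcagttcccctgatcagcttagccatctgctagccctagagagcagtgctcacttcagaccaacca
Cavin1: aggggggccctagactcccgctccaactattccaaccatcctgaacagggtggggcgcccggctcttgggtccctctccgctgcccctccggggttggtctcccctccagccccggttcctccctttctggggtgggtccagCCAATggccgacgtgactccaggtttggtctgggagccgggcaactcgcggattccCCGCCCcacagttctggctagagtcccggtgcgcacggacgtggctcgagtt

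Cav2 and Cav1 are next to each other on chromosome 4 in the gene table, with no annotated gene between them. The windows of Cav2, Cav1 and Cavin1 were rich in G and C, at 68.4%, 60.0% and 67.2%, with 19, 13 and 17 CpG dinucleotides, and each held 1 GC box. The downstream Cav1 start, not printed, had a window of 65.6% G and C with 17 CpG and none of the 3 motifs. The Cavin2 window was poorer, at 47.6% with 1 CpG, and held none of the 3 motifs. A GC box stood in 30.5% of all 33469 windows of this length, a TATA box in 12.9% and the NF-Y motif in 34.0%, and the median window had 51.2% G and C and 5 CpG. The printed Cav1 window also held 1 match to the TATA box letters. It lies on the opposite strand (marked TTTATA), nearer the far end of the window than the start of the gene. The Cavin1 window held 1 NF-Y motif, and a match describes letters only, not a bound site. Cav2 and Cavin2, the genes with the largest differences between groups, had windows of unlike base composition.

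In induced cells Cav2 rose, and Cavin2 had an even larger estimate that did not pass the test. The other coat genes had smaller estimates that did not pass either. The largest of these were Cav1 at 0.66 and Ehd2 at 0.59, both with a 95% interval above 0. A gene counted as changed at an adjusted p under 0.05 in limma's moderated test with Benjamini-Hochberg adjustment over all 18166 genes. By that rule 1 of the 8 genes, Cav2, was higher and 0 were lower, where 0.749% of all genes changed, 0.479% being higher and 0.270% lower. Without adjustment, 4 of the 8 (Cav1, Cav2, Cavin2 and Ehd2) had a p under 0.05, against 17.6% of all genes. The 3 induced arrays lay wholly above the 3 control arrays for 4 of the 8 (Cav2, Cavin1, Cavin2 and Ehd2), as for 12.0% of all genes, and wholly below for 0, as for 13.4% of all genes. The median change of the 8 genes was 0.44 on the log2 scale, against -0.01 over all genes. The arrays hold RNA of whole cultures, so more cells of a type and more RNA per cell cannot be told apart.

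Cav2, the partner of Cav1, read 11.16, 11.15 and 11.83 on induced replicates 1 to 3, against 8.99, 8.43 and 8.10 on control replicates 1 to 3 (log2 RMA signal). The groups lay far apart, every induced array being above every control array, and induced replicate 3 was the highest. Cav2 rose by 2.87 on the log2 scale (SE 0.28, limma adjusted p = 0.0181), a 7.33-fold higher signal with a 95% interval of 4.59 to 11.7, and ranked 72 among 18166 genes by size of rise. It averaged 11.38 ± 0.39 in induced cells and 8.51 ± 0.45 in control cells (SD, n = 3 each). Its 2 features differed by at most 0.05 on any array. With 1 array left out the estimate stayed between 2.65 and 3.12. The call held without control replicate 1 (adjusted p = 0.0267) and without induced replicate 3 (0.0053). It did not hold when control replicate 2 (adjusted p = 0.0801) or 3 (0.0643), or induced replicate 1 (0.102) or 2 (0.0789), was left out.

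Cav1, the main structural caveolin, read 12.52, 12.49 and 12.28 in induced cells, against 12.29, 11.64 and 11.37 in control cells. Control replicate 1 was level with induced replicate 3, so the groups overlapped. The estimate was 0.66 (SE 0.24, 95% interval 0.09 to 1.23, limma adjusted p = 0.233), a 1.58-fold difference that did not pass. It lay between 0.47 and 0.92 with 1 array left out, never passing (adjusted p from 0.0888 to 0.489).

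Cav3, the muscle caveolin, read 5.01, 5.07 and 5.30 in induced cells, against 5.42, 5.05 and 5.25 in control cells. All values lay below the array medians, which ran from 5.64 to 5.73, and the groups overlapped. The estimate was -0.11 (SE 0.14, 95% interval -0.45 to 0.23, limma adjusted p = 0.758). The 8 measured skeletal muscle markers read between 5.09 and 7.48, and 0 of them passed. Among these, Acta1, skeletal actin, stood at -0.65 (adjusted p = 0.32) and Tnnt3, a fast troponin, at -0.35 (adjusted p = 0.468).

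**Figure D1:**
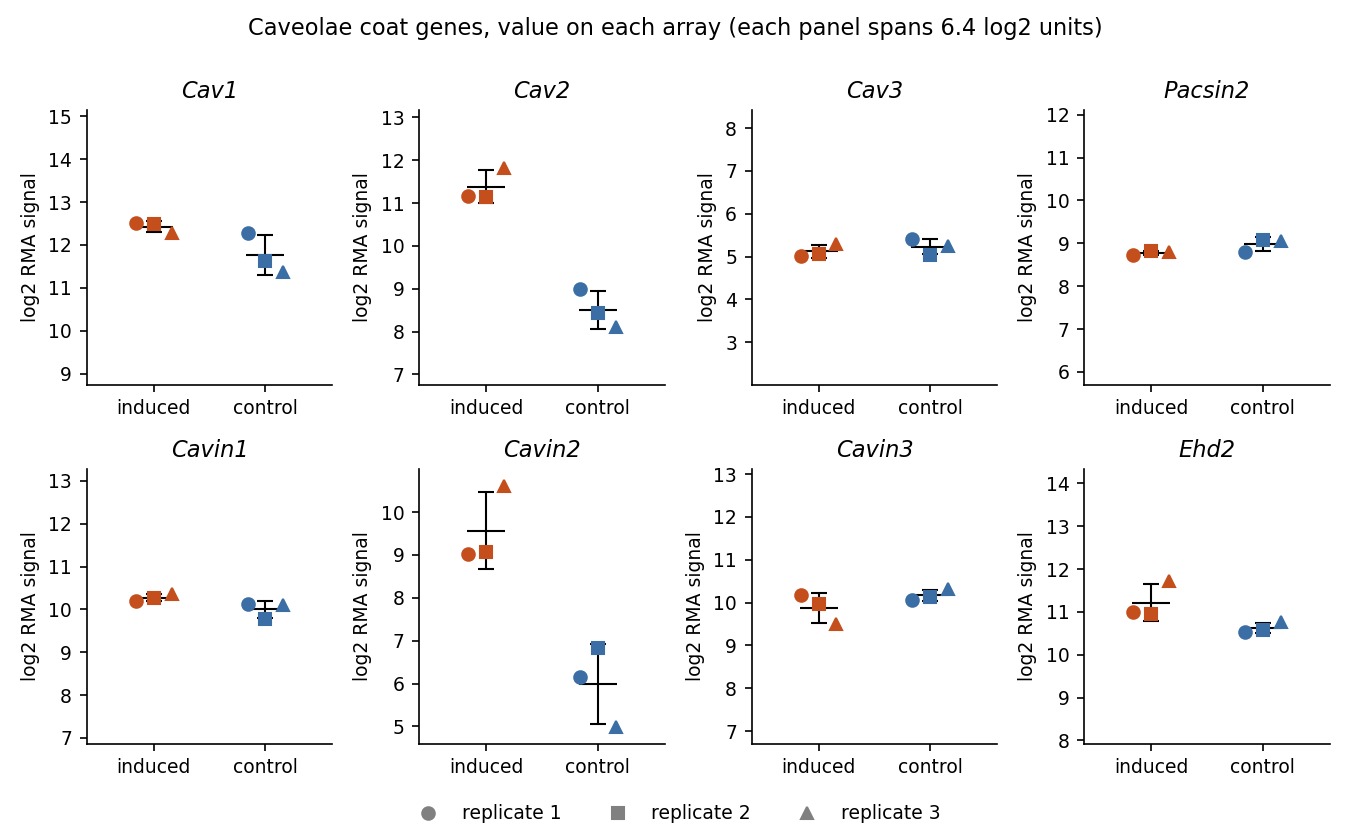
Log2 RMA signal of each caveolae coat gene on each array, induced left and control right, with the mean and SD of 3 arrays per group. Marker shapes give the replicate. The group means of Cav2 and Cavin2 lie 2.87 and 3.57 units apart, and each of the other 6 genes spans at most 1.19 units over all arrays.

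Among the cavins the same split appeared. Cavin1, without which caveolae do not form, read 10.19, 10.27 and 10.37 in induced cells, against 10.12, 9.77 and 10.11 in control cells. The induced arrays lay just above the control arrays, by 0.06 at the closest. The estimate was 0.28 (SE 0.14, 95% interval -0.05 to 0.60, limma adjusted p = 0.357), so a difference of up to 1.52-fold in favour of induced cells lies within the interval. With 1 array left out it ran from 0.16 to 0.34.

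Cavin2, the phosphatidylserine-binding cavin, read 9.01, 9.08 and 10.60 in induced cells, against 6.16, 6.83 and 4.99 in control cells. All induced arrays lay above all control arrays, but each group spread widely, replicate 3 being the highest induced array and the lowest control array. Control replicate 3 lay below the array medians of 5.64 to 5.73, and control replicates 1 and 2 above them. RMA compresses dim signals, so the fold and the control spread are less sure there. The estimate was 3.57 (SE 0.59, 95% interval 2.17 to 4.97, limma adjusted p = 0.0599), an 11.9-fold difference with an interval of 4.49 to 31.4 that missed the threshold over all genes. It averaged 9.56 ± 0.90 in induced cells and 5.99 ± 0.93 in control cells (SD, n = 3 each), and ranked 33 among all genes by size of rise. Without induced replicate 3 the estimate was 3.05 and passed (adjusted p = 0.0265), in a fit where 2.00% of all genes were higher. Without both replicate 3 arrays it was 2.55 and passed too (adjusted p = 0.00269), where 2.29% of all genes were higher. In the other 5 fits with 1 array left out it did not pass (adjusted p from 0.111 to 0.177).

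Cavin3, which joins the coat through Cavin1, read 10.17, 9.97 and 9.50 in induced cells, against 10.06, 10.14 and 10.32 in control cells. Induced replicate 3 was the lowest of all 6 arrays, and the groups overlapped. The estimate was -0.29 (SE 0.19, 95% interval -0.75 to 0.17, limma adjusted p = 0.492), and without induced replicate 3 it was -0.10.

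The genes of the caveolar neck did not pass either. Ehd2 read 10.99, 10.94 and 11.72 in induced cells, against 10.53, 10.57 and 10.77 in control cells. The groups did not overlap, and induced replicate 3 was the highest. The estimate was 0.59 (SE 0.22, 95% interval 0.06 to 1.13, limma adjusted p = 0.247), and 0.34 without induced replicate 3 (adjusted p = 0.219). Pacsin2 read 8.72, 8.81 and 8.79 in induced cells, against 8.80, 9.09 and 9.06 in control cells. Its 3 induced values were within 0.09 of each other, and the groups overlapped. The estimate was -0.21 (SE 0.12, 95% interval -0.49 to 0.08, limma adjusted p = 0.426).

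**Figure D2:**
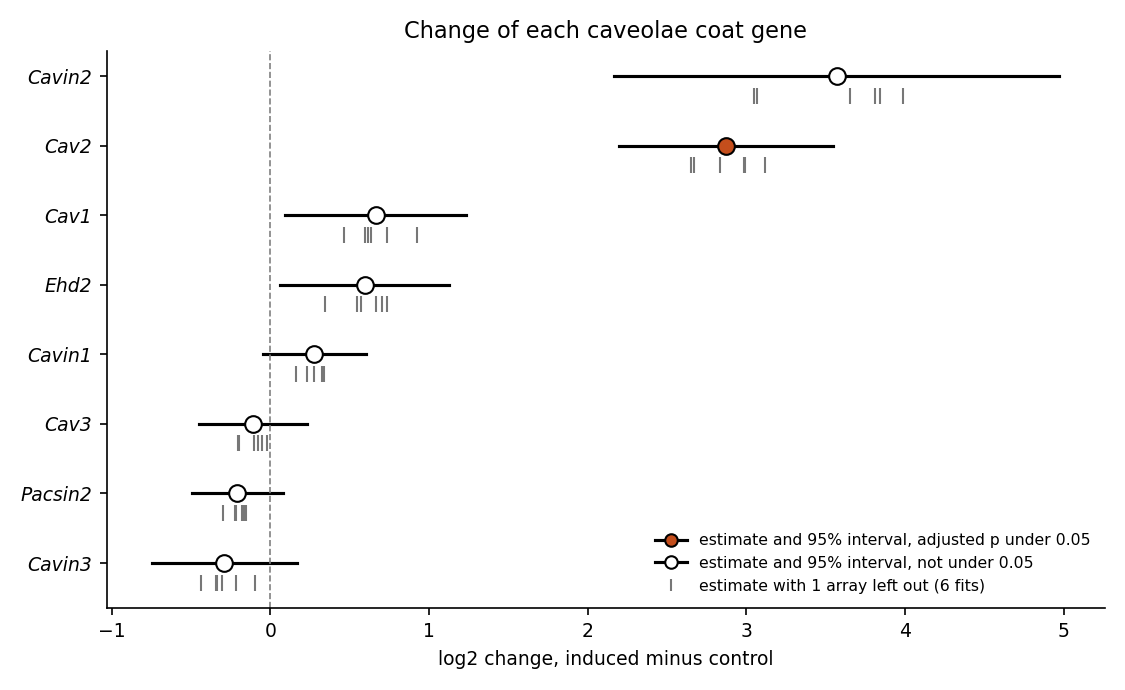
Log2 change of each gene, induced minus control, with its 95% interval from limma (n = 3 arrays per group). Grey ticks under each line are the estimates with 1 array left out in turn, and the filled point, Cav2, is the gene with an adjusted p under 0.05. Every tick of Cav2 and Cavin2 lies above 2.6, and the ticks of the other genes lie between -0.44 and 0.92.

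Related coat genes were next compared with each other on the same array, to describe by how much Cav2 and Cavin2 shifted against their partners. The 4 pairs were chosen after the values were seen. Different features bind their targets differently, so only the change of such a difference can be read, not its size on 1 array. Cav2 minus Cav1 was -1.36, -1.34 and -0.45 on the induced arrays, against -3.30, -3.21 and -3.27 on the control arrays. The induced arrays lay above the control arrays, which were within 0.09 of each other although Cav1 ranged over 0.92 and Cav2 over 0.89 among them. The shift between groups was 2.21, so the ratio of Cav2 to Cav1 signal was 4.63-fold higher in induced cells.

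Cavin2 minus Cavin1 was -1.17, -1.20 and 0.23 on the induced arrays, against -3.96, -2.94 and -5.12 on the control arrays. The shift was 3.29, or 9.80-fold, with no overlap and a wide spread in both groups. The shift of Cav2 minus Cav3 was 2.98 and that of Cavin2 minus Cavin3 was 3.86, again with no overlap. In an exact two-sided permutation test each of the 4 pairs gave p = 0.1 (0.1 after Benjamini-Hochberg adjustment over the 4). That is the smallest p that 3 arrays against 3 allow. The groups lay at least 2.16 apart for Cav2 and 2.18 for Cavin2, and no partner ranged over more than 1.15 on all arrays. The lack of overlap and this p were thus fixed by values already seen and add no support. Cav3 read below the array medians, so Cav2 minus Cav3 mostly repeats Cav2.

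**Figure D3:**
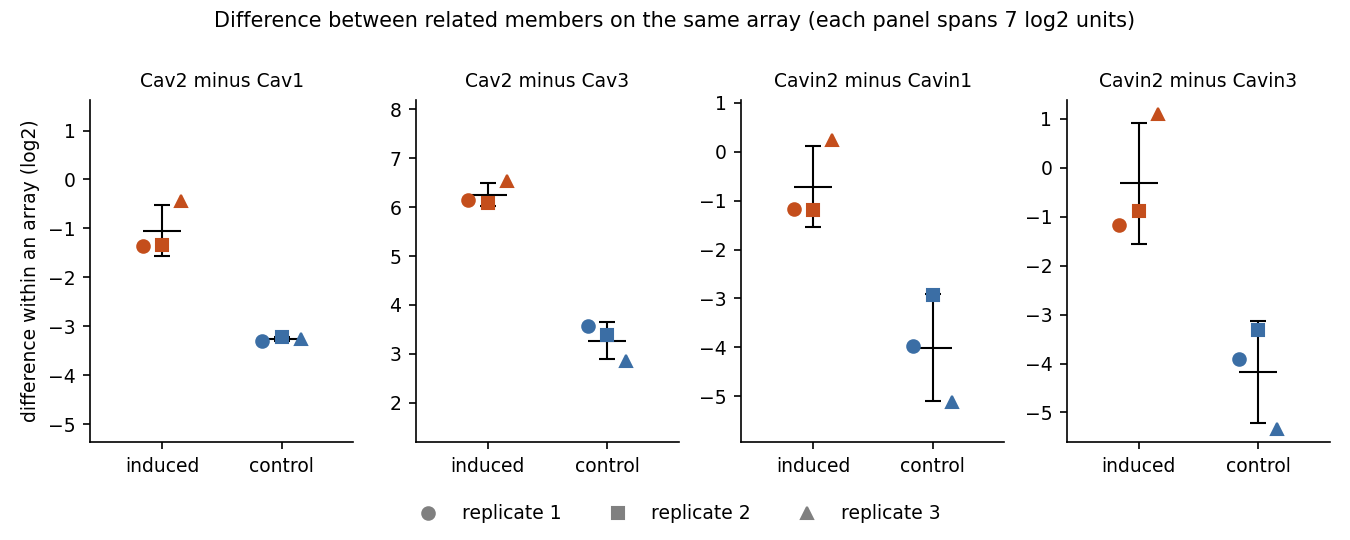
Difference in log2 signal between related coat genes on the same array, induced left and control right, with mean and SD of 3 arrays per group. Cav2 minus Cav1 falls between -1.36 and -0.45 on the induced arrays, against -3.30 to -3.21 on the control arrays.

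The position of single arrays was then set beside 12 markers of mature adipocytes, whose mean was 10.84, 10.81 and 11.69 on induced replicates 1 to 3, against 8.68, 7.19 and 7.01 on control replicates 1 to 3. All 12 had positive estimates (median 3.62) and 5 of the 12 rose, led by Retn, Cidec, Plin1 and Pnpla2 at 4.72, 4.62, 4.28 and 3.04. With 1 array left out, these 4 calls held without control replicate 1 or induced replicate 3 and were lost in the other 4 fits, with adjusted p up to 0.152. Control replicate 1 had the highest mean of its group, and it was also the highest control array for Cav1, Cav2, Cav3 and, narrowly, Cavin1. For Cavin2 it was not: control replicate 2 read 6.83 and control replicate 1 read 6.16. For Cavin3, Ehd2 and Pacsin2 it was the lowest control array. Induced replicate 3, with the highest adipocyte mean, was the highest array for Cav2, Cavin1, Cavin2 and Ehd2, the lowest array for Cavin3 and the lowest induced array for Cav1. This array stood apart across the whole table: 2745 and 2664 features were over 2-fold apart from induced replicates 1 and 2, which differed from each other at 546. Its part in the estimates is given by the values without it, above.

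**Figure D4:**
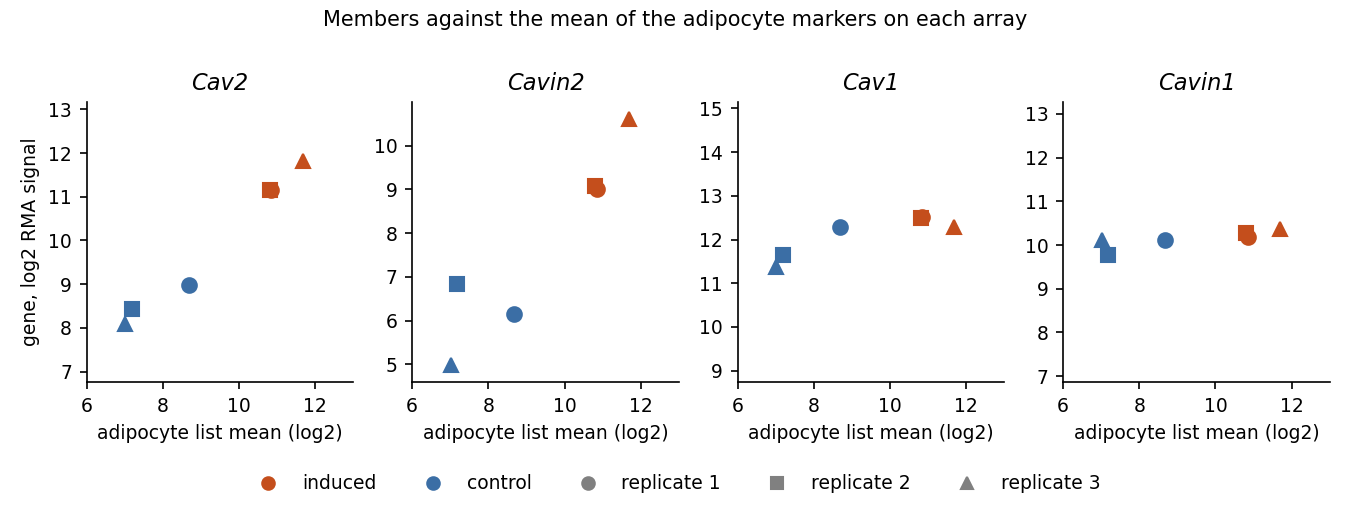
Log2 signal of Cav2, Cavin2, Cav1 and Cavin1 on each array against the mean log2 signal of 12 adipocyte markers on that array. Colours give the group and marker shapes the replicate. Cav2 and Cavin2 are highest on induced replicate 3, where the marker mean is 11.69, and Cav1 and Cavin1 span 1.15 and 0.60 units over all arrays.

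Markers of other caveolae-bearing or contaminating cell types were read beside these results. The 9 measured endothelial markers had list means of 5.34, 5.29 and 5.36 on the induced arrays, against 5.32, 5.37 and 5.39 on the control arrays, and 0 passed. Cdh5 and Vwf, which define the type, lay below the array medians on all 6 arrays. Egfl7 did not: it read 7.02, 7.29 and 8.27 in induced cells, against 6.76, 6.83 and 7.15 in control cells, and stood at 0.61 (adjusted p = 0.386), or 0.24 without induced replicate 3. Tek stood at -0.74 (adjusted p = 0.34) and read 6.51 on control replicate 3, without which it stood at -0.31. Esam read 5.93, 5.85 and 5.04 in induced cells, against 5.98, 5.98 and 5.40 in control cells. It thus lay above the array medians on replicates 1 and 2 of both groups. Of 6 smooth muscle and mural markers 0 passed. Notch3 stood at 0.80 (adjusted p = 0.102) and Tagln, a contractile protein that stromal cells also make, at -0.72 (adjusted p = 0.279). The 10 macrophage and leukocyte markers had means of 7.64, 7.16 and 6.04 on the induced arrays, against 6.68, 7.00 and 5.54 on the control arrays. Replicate 3 was low in both groups, and 0 of the 10 passed, C1qb standing at 1.89 (adjusted p = 0.282) and Cd68 at 1.39 (adjusted p = 0.347). Lyz2 read 11.56, 10.99 and 4.44 in induced cells, against 9.31, 10.19 and 4.71 in control cells (estimate 0.93, adjusted p = 0.877). Without control replicate 3 Cd68 stood at 0.61, and without both replicate 3 arrays at 0.34. Without induced replicate 3 C1qb stood at 2.88 and passed (adjusted p = 0.0012). Without both replicate 3 arrays C1qb stood at 2.85 and passed too (adjusted p = 0.00137). In that same fit the log2 changes of Cav2 and Cavin2 were 2.45 and 2.55. The 9 stromal precursor markers, by which the label ADSC was checked, read between 7.65 and 13.32 on all arrays, with a median change of -0.88 and 0 passing. All 9 had negative estimates. For 5 of the 9, Nt5e included and Lum not, the induced arrays lay wholly below the control arrays, as for 13.4% of all genes. Among them Nt5e stood at -1.10 (adjusted p = 0.212) and Lum at -0.98 (adjusted p = 0.56). Lum read 10.82, 11.16 and 8.27 in induced cells, against 11.69, 10.64 and 10.88 in control cells, and stood at -0.08 without induced replicate 3. Nt5e stood at -0.88 without that array.

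Relatives of the coat genes did not pass. Of 6 paralogues outside the 8 genes (Cavin4, Ehd1, Ehd3, Ehd4, Pacsin1 and Pacsin3) 0 changed, with a median of -0.10. Ehd1, an endocytic recycling ATPase, stood at 0.64 (adjusted p = 0.432) and read 9.49 on induced replicate 3 but 8.20 and 8.10 on the other induced arrays. Ehd4 stood at -0.49 (adjusted p = 0.373). Without induced replicate 3 they stood at 0.19 and -0.19. Cavin4, the muscle cavin, read 4.34 to 4.87 on all 6 arrays, below the array medians.

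Enzymes that supply the lipids of caveolar membranes gave a pair of opposite changes. Sgms1, the sphingomyelin synthase of the Golgi, read 8.52, 8.67 and 8.91 in induced cells, against 7.81, 7.65 and 7.68 in control cells. It rose by 0.99 (SE 0.13, limma adjusted p = 0.0368). Sgms2, the sphingomyelin synthase of the plasma membrane, read 8.10, 8.13 and 8.15 in induced cells, against 8.95, 9.09 and 9.27 in control cells. It fell by 0.97 (SE 0.12, limma adjusted p = 0.0289). Neither pair of groups overlapped, and the other 7 measured genes of this list did not pass, the list median being -0.08. With 1 array left out the Sgms1 call held without induced replicate 3 (adjusted p = 0.0187) and was lost in the other 5 fits (adjusted p from 0.0751 to 0.147). The Sgms2 call held without control replicate 1 (0.0439) or induced replicate 3 (0.0177) and was lost in the other 4 (adjusted p from 0.0938 to 0.152).

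Of 13 measured receptors, transporters and adaptors that have been linked to caveolae 1 changed, with a median of -0.12. Rhoq, the small GTPase TC10 that insulin activates in lipid rafts of adipocytes, read 8.33, 8.65 and 8.57 in induced cells, against 9.35, 9.40 and 9.53 in control cells. It fell by 0.91 (SE 0.13, limma adjusted p = 0.0382), a call that held without induced replicate 3 (adjusted p = 0.0238) and was lost in the other 5 fits with 1 array left out (adjusted p from 0.0803 to 0.159). The induced arrays lay wholly above the control arrays for 3 of the 13 genes, against 12.0% of all genes, and wholly below for 4, against 13.4%. These 7, Rhoq aside, are named after their values were seen. Slc2a4, the insulin-regulated glucose transporter, read 8.15, 8.06 and 10.09 in induced cells, against 5.88, 5.74 and 5.48 in control cells (estimate 3.07, adjusted p = 0.067). Insr, the insulin receptor, stood at 0.88 (adjusted p = 0.246) and its substrate Irs1 at 1.29 (adjusted p = 0.144). Without induced replicate 3 the 3 genes stood at 2.40, 0.48 and 0.92, and Slc2a4 passed (adjusted p = 0.0012). Below lay, besides Rhoq, the growth factor receptors Igf1r at -0.69 (adjusted p = 0.398) and Egfr at -0.95 (adjusted p = 0.461), and the nitric oxide synthase Nos3 at -0.12 (adjusted p = 0.563). Without induced replicate 3 Igf1r stood at -0.23 and Egfr at -0.21.

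The machinery that pinches caveolae off and ties them to actin had 0 of 9 genes passing, 8 with negative estimates and a median of -0.46. Dnm1, the dynamin best known from nerve cells, stood at -1.11 (adjusted p = 0.133) and Ror1, a receptor that has been described as a scaffold for caveolin and cavin, at -0.81 (adjusted p = 0.446). Without induced replicate 3, Dnm1 stood at -0.77 and passed (adjusted p = 0.0415). Ror1 read 9.19, 9.16 and 7.45 in induced cells, against 9.79, 9.28 and 9.15 in control cells, so its estimate rested mostly on induced replicate 3, and without it was -0.23. Of 6 flotillin and stomatin genes, which form other membrane rafts, 0 passed. Flot2 stood at 0.53 (adjusted p = 0.236) and Stom at -0.36 (adjusted p = 0.34), and the list median was -0.14.

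Other coats served for comparison. Among 13 genes of the clathrin and AP2 coat, which drives the main other route of endocytosis, 0 passed, the median was -0.17 and 12 of the 13 had estimates within 0.5 of 0. Eps15 stood at 0.58 (adjusted p = 0.386) and Ap2m1 at -0.39 (adjusted p = 0.238). Among 9 genes of the lipid droplet coat 3 rose (Cidec, Cidea and Plin1, by 4.62, 4.62 and 4.28) and the median was 1.96, Cidec and Plin1 being counted among the adipocyte markers too. The Cidea call, like theirs, held in 2 of 6 fits with 1 array left out (without control replicate 1 or induced replicate 3). The estimates of Cav2 (2.87) and Cavin2 (3.57) lay above the droplet coat median, and those of the other 6 caveolae coat genes lay within 0.7 of 0. The droplet coat itself ran from -0.16 to 4.62, so Cav1, Cavin1, Ehd2 and Cav3 lay within its range too. These lists differ in size and were chosen with results known, and their difference was not tested.

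**Figure D5:**
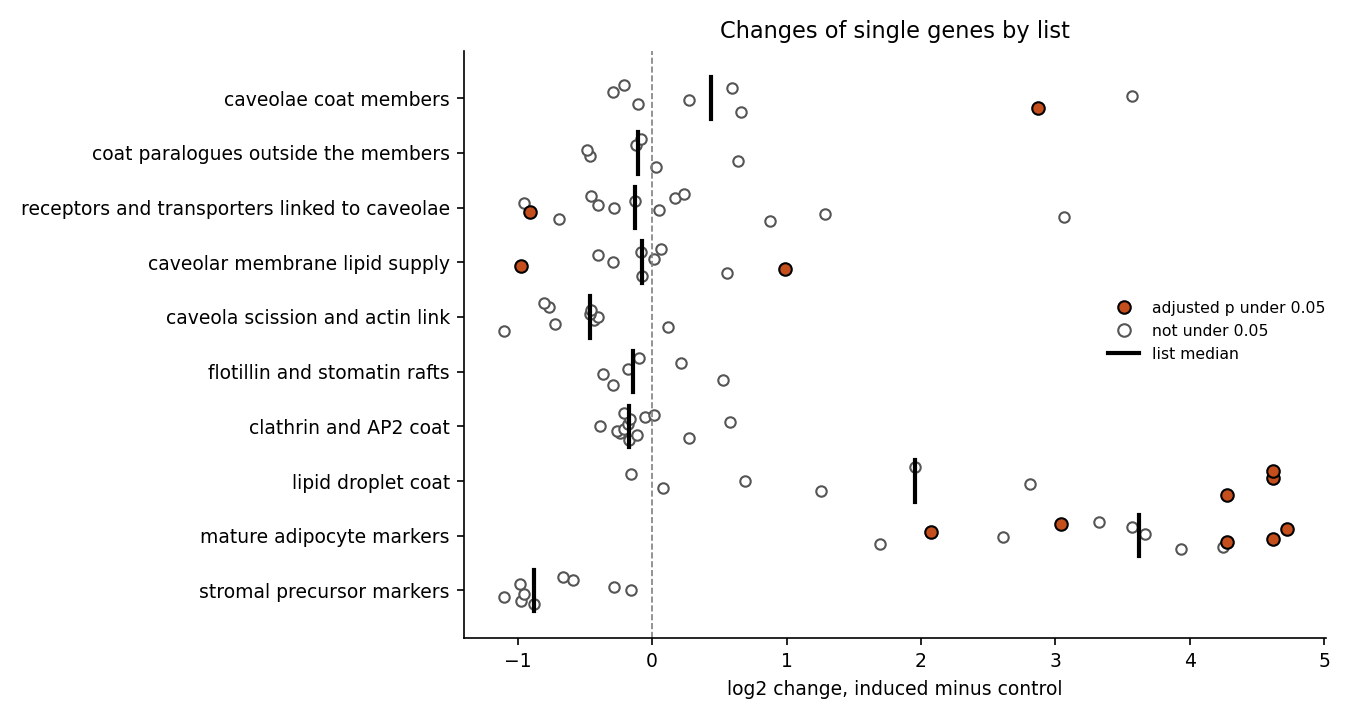
Log2 change of single genes, induced minus control, in each list, with the list median as a vertical bar and genes with an adjusted p under 0.05 filled. The caveolae coat row spreads from -0.29 to 3.57, the clathrin row from -0.39 to 0.58, and all 12 adipocyte markers lie above 1.69.

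Genes with profiles most like those of the coat genes were ranked by the root mean square difference between log2 values over the 6 arrays, after each gene was centred on its own mean. For Cav1 these were Dennd6a, Akap1, Jade2, Gss and Slfn2, with differences of 0.09 to 0.11. For Cavin1 they were Brms1, Rnf19a, Lap3, Dtwd2 and Hgsnat, at 0.05 to 0.06. None of these 10 passed the test (adjusted p from 0.147 to 0.49), and a small difference is easily reached where a gene varies little. Cav2 and Cavin2 were added after the values were seen. A gene near them must share their difference between groups, so the changes of these neighbours follow from the measure and are given as a description. Those nearest to Cav2 were Agpat2, Pnpla2, Cd59b, Pon3 and Apcdd1, at 0.18 to 0.24, all of which rose, by 2.89, 3.04, 2.75, 2.91 and 2.42 (adjusted p from 0.0127 to 0.0266). With 1 array left out, each of these calls held in 1 to 3 of 6 fits, among them the fit without induced replicate 3. Those nearest to Cavin2 were Enpp2, Ptger3, Ghr, Tspan12 and Fmo1, at 0.36 to 0.47, of which Enpp2 rose by 3.79 (adjusted p = 0.0368) and Ghr by 3.11 (adjusted p = 0.033). With 1 array left out, both of these held only without induced replicate 3, where Ptger3, Tspan12 and Fmo1 passed too (adjusted p from 0.0079 to 0.0252). Among all genes compared, Cav2 ranked 25 in likeness to Cavin2 and Cavin2 ranked 111 in likeness to Cav2. The nearest coat gene to Cav1 was Cavin1, at rank 1565. The measure weighs the size of a change, so Cav2 (2.87) had to lie far from Cav1 (0.66). It therefore does not say whether these chromosomal neighbours vary together within a group. Cav2 minus Cav1 stayed within 0.09 among the 3 control arrays but ran from -1.36 to -0.45 among the 3 induced arrays. Whether the 2 genes vary together was not tested.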

How the data were processed

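The deposited values are log2 signals made by the authors with RMA, per the submitters' processing notes (background correction, quantile normalization, probe summary; version not stated there). The log2 scale was read from the values. RMA gives no detection call, compresses dim signals and hides changes in total RNA. Of 36685 features 18511 carried 1 gene symbol, 575 several and 17599 none, and those with several named no gene. Names were matched to the GRCr8 table by gene number (18394 features), and 291 genes had more than 1 feature. With no read depth on arrays, precision is limited by their number. The groups' comparison used limma 3.58.1 under R 4.3.3 (default prior, two-sided, 4 residual and 2.65 prior degrees of freedom, no block). In simulated data for this comparison (18166 genes) 55.2% of changes of 1, 92.5% of 2 and 97% of 4 (log2) were called, with 6 false calls. The simulated noise was independent and normal with 1 pooled SD per gene, so no simulated array stood apart as induced replicate 3 did. Changes were added to randomly chosen genes, so these rates need not hold for genes with a wide spread. Cavin2, at 3.57, was not called.

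The genes and lists were chosen with earlier results of these data known. Named were all 8 coat genes; per list up to 4 called genes, or the 2 with the largest change; and the 5 nearest profiles of Cav1 and Cavin1, without placeholder symbols, small RNAs and pseudogenes. Slc2a4, Insr, Irs1, Igf1r, Egfr, Nos3, Lyz2, Esam and the nearest profiles of Cav2 and Cavin2 were named after their values were seen. Of the listed genes 15, among them Cd36, had no feature with a single symbol and were not analysed here. The alternatives were other feature choices, array weights, another prior, a filter at a mean of 5, a replicate block, equal array medians and arrays left out.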

Additional observations from a re-analysis of the deposited data

How the results depend on the processing

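None of the 8 coat genes changed direction under any of the 14 alternatives. For the fit on features, the other prior, the filter and the replicate block this was fixed in advance, since they leave the estimate unchanged. The mean of a gene's features could change only Cav2, the coat gene with 2 features. Cav2 stayed between 2.45 and 3.12 and passed in 9 of 14 (adjusted p from 0.0016 to 0.102), and it ran from 2.65 to 3.12 with 1 array left out. With the replicate number as a block, it was 2.87 and did not pass (adjusted p = 0.069). Cavin2 passed in 3 of 14, at 2.96 with array weights (adjusted p = 0.0205, where 2.61% of genes were higher), 2.55 without both replicate 3 arrays and 3.05 without induced replicate 3, within a range of 3.05 to 3.99 with 1 array left out. The number of coat genes that changed was 2 with array weights and 2 without both replicate 3 arrays, 0 with the replicate block, and 0 to 2 with 1 array left out. The number of all genes that changed, 136 as reported, was 58 on features, 929 with array weights, 12 with the replicate block, 740 without both replicate 3 arrays and 2 to 557 with 1 array left out. For the 117 measured genes of the other lists, 9 changed as reported, against 5, 25, 0, 22 and 0 to 21 under the same alternatives in that order. Over all genes, same-numbered arrays deviated together only weakly (correlations of 0.023, 0.12 and 0.154). That does not settle whether they share a source, which the labels do not give. The main fit did not take the numbers as pairs, and the call of Cav2 depended on that choice. Apart from Cav2, the block changed no call of a coat gene. The fit on features adjusts over more tests, and fits with fewer arrays have fewer degrees of freedom; the causes of the other moves were not tested. Of 714 estimates for 51 other genes (those of the naming rule, the neighbours of Cav2 and Cavin2, and Slc2a4, Insr, Irs1, Igf1r, Egfr and Nos3), 611 kept their side of the threshold, 82 lost it, 21 gained it and 0 turned sign. The alternatives that leave an estimate unchanged count among these 714 and could turn no sign. Lyz2 and Esam are not among the 51. Dim signals, such as Cav3 and Cavin2 on control replicate 3, limit what can be read.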
